A study of Mus musculus with 4 samples.

Results

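The 10 genes described here belong to the Nodal and BMP branches of TGF-beta signalling: Nodal, Lefty1, Lefty2, Tdgf1, Smad7, Skil, Id1, Id2, Id3 and Bmp4. They were followed through every pair of anchors, the DpnII-bounded intervals whose mutual contacts the table counts, in which at least 1 anchor covers a GENCODE M21 transcription start site of a member. Of the 1513030 pairs in the count table, 1053 met this rule. Each of 9 members had its start sites in exactly 1 anchor. Smad7 had none: the anchor nearest to any of its 5 start sites lay 25416 bp away, so no contact of Smad7 is reported. Across the genome, 13980 of 20780 autosomal protein-coding genes had a start-site anchor.

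The study measured H3K27ac HiChIP, which ligates DNA ends that lie close together in fixed nuclei, enriches them with an antibody against acetylated lysine of histone H3 (a mark of active promoters and enhancers) and sequences them. Mouse embryonic stem cells of 2 inbred strains were compared, C57BL/6J (B6, lines B6 4-1 and B6 5-1) and DBA/2J (D2, lines D2 2-9 and D2 5-5), with 1 library per line and thus n = 2 libraries per strain. All 4 lines carry their strain's own genotype and were grown with 15% serum, LIF and the inhibitors of MEK (PD0325901, 1 μM) and GSK3 (CHIR99021, 3 μM), so both strains share this medium, and they were fixed in 1% formaldehyde for 10 minutes before digestion with DpnII. The labels give each line as a separate biological replicate and give no age, passage or feeder layer.

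Nodal is a secreted ligand that signals through activin receptors and the co-receptor encoded by Tdgf1 (Cripto) to SMAD2 and SMAD3, which act on DNA with SMAD4 and often with FOXH1. The Lefty proteins are secreted antagonists of Nodal and are themselves induced by it, and Smad7 and Skil encode intracellular inhibitors of SMAD signalling that are also induced by it. BMP4 signals through SMAD1 and SMAD5, and the Id genes, whose products block basic helix-loop-helix factors, are the best-known targets of that branch in mouse embryonic stem cells.

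The sequence at the start sites is shown first because the members are grouped by the SMAD proteins that are known to act on them. RefSeq promoter windows (GRCm38.p6) were matched by symbol for 5 of the 10 members, Nodal, Tdgf1, Id2, Id3 and Bmp4. Lefty1, Lefty2, Smad7, Skil and Id1 had no match. The 250 bases before the start were searched on both strands for CAGAC (known for SMAD3 and SMAD4), its palindrome GTCTAGAC, GGCGCC (known for SMAD1 and SMAD5) and TGTNNATT (known for FOXH1), and these motifs are in capitals below. No match of one motif overlapped a match of another. All 5 windows lie inside the start-site anchor of their gene, and 3 held a match; each is printed 5′ to 3′ on the gene's strand. They are the sequence of the reference strain, C57BL/6J, and the D2 sequence was not used here.
Tdgf1, chr9:110946159-110946408, minus strand: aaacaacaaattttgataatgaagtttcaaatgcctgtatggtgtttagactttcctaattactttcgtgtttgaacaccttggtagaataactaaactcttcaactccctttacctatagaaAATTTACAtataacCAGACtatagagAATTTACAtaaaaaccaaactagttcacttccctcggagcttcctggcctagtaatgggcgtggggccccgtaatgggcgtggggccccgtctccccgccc
Id2, chr12:25096093-25096342, minus strand: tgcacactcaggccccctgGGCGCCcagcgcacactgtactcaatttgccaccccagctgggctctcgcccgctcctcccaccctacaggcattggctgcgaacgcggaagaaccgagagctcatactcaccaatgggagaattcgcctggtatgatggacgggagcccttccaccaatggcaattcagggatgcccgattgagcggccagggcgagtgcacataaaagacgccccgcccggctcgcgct
Id3, chr4:136143572-136143821, plus strand: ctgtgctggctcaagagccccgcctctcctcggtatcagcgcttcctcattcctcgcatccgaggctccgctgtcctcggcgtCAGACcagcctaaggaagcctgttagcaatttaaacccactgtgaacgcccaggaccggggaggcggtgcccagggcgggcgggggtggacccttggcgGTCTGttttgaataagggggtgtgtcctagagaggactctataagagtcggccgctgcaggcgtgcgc
The Tdgf1 window had 2 matches to TGTNNATT and 1 to CAGAC between them. The Id2 window had 1 match to GGCGCC, and the Id3 window had 2 matches to CAGAC. Among all 32851 promoter windows of the same length, 42.2% held CAGAC, 0.167% the palindrome, 9.59% GGCGCC and 10.9% TGTNNATT. The windows of Nodal and Bmp4 held none of the letters searched, and a match is a description of the sequence, not of binding.

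Every one of the 56562 anchors begins and ends at GATC, the site cut by DpnII, on GRCm38, which fixed the build used for the coordinates. The ends of the Id2 anchor and of its strongest partner are shown because the member pair with the smallest adjusted p joins them; the cut site is in capitals, on the plus strand.
Id2 anchor, chr12:25091024-25091043: ctcttaagGATCttaagaca
Id2 anchor, chr12:25103105-25103124: tggcgtcaGATCatgtaagg
partner, chr12:25137330-25137349: cgatctgtGATCccagacag
partner, chr12:25151809-25151828: tgggaaacGATCattgtata
Contacts can only be placed between such sites, and the Id2 anchor holds 27 of them in 12.1 kb.

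The anchors of the members were wide. The median anchor of the table measured 4078.5 bp, whereas the members' anchors ran from 9.66 kb at Id1 to 69.9 kb at Lefty2, all above the 86th percentile of width. The anchors of Lefty2, Tdgf1 and Bmp4 also covered the start of other protein-coding genes, among them Lrrc2 at Tdgf1 and Gm15217 at Bmp4, so their contacts cannot be assigned to the member alone. Those of Nodal, Lefty1, Skil, Id1, Id2 and Id3 covered no other protein-coding start.

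The libraries held 2767882 to 2944258 counts each. Counts of a pair, or of all pairs of a gene, are given below as CPM, counts per 1000000 counts of the library. Of 12 embryonic stem cell markers listed, Esrrb, Tfcp2l1 and Klf2 had no start-site anchor, so a missing anchor is not specific to markers of other cell types. The other 9 had one (Pou5f1, Sox2, Nanog, Klf4, Tbx3, Prdm14, Zfp42, Dppa5a and Tdh). Their summed level was 2199 to 2404 CPM in B6 and 2309 to 3525 CPM in D2. Of the 9, 3 passed the edgeR test as higher in D2 (Sox2, Nanog and Tdh), against 3.53% of all genes tested. Klf4, Pou5f1 and Prdm14 went the other way without passing (log2 fold changes -0.31, -0.24 and -0.14). The 3 that passed were highest in D2 replicate 1. Nanog had 981 CPM there and 588 CPM in D2 replicate 2. Of 6 fibroblast markers, Col1a1, Col1a2, Col3a1 and Postn had no start-site anchor, and Thy1 and Twist1 together reached 4.70 to 10.3 CPM. The summed levels of the other lists, B6 before D2, were 102 to 107 and 94.7 to 101 CPM for 4 of 4 primitive endoderm genes, 134 to 149 and 134 to 143 CPM for 2 of 3 trophoblast genes (Elf5 had no anchor), 150 to 160 and 142 to 149 CPM for 4 of 4 epiblast-like and mesoderm genes, and 48.9 to 54.0 and 64.5 to 67.9 CPM for 2 of 2 neural genes. None of the 14 genes tested in these other lists passed with edgeR or, where it gave an adjusted p (not for 3 of them), with DESeq2. By edgeR 3 had an unadjusted p under 0.05, against 3497 of all 13810 genes tested. The part of these markers in the results below was not tested. In bulk material, fewer cells with a contact and fewer contacts per cell cannot be told apart.

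The strains were compared first by the summed contacts of each member. Contacts of Id2 were lower in D2 by a factor of 2.09. Contacts of Id1 were lower by a factor of 1.27, a difference that passed with TMM over genes but not with TMM over anchors, library totals or DESeq2, as described below. The other 7 members did not pass the test in either direction with edgeR or DESeq2. By edgeR 2 of them had an unadjusted p under 0.05, against 3497 of all 13810 genes tested. Thus 2 of 9 members were called, both lower in D2, against 13.3% of all 13810 genes tested (9.78% called lower and 3.53% called higher; edgeR quasi-likelihood test, Benjamini-Hochberg adjustment over all genes, adjusted p under 0.05).

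**Figure D1:**
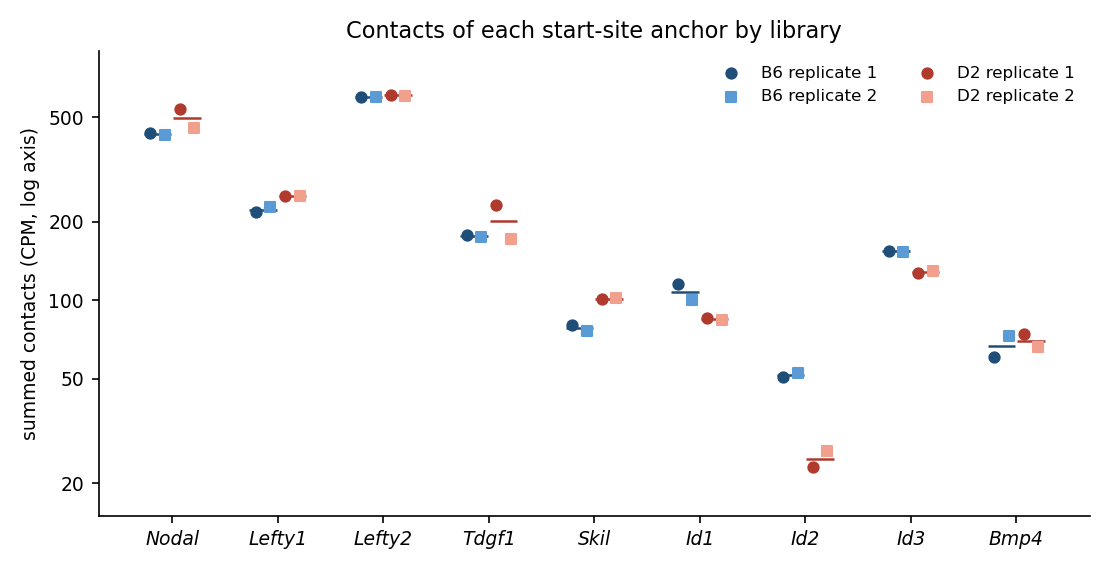
Summed contacts of the start-site anchor of each of the 9 members that had one, in CPM on a log axis. Each point is 1 library (circles, replicate 1; squares, replicate 2), and bars are strain means of n = 2. Id2 shows the widest gap between the strains, and the libraries of Tdgf1 and Bmp4 interleave.

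Among the ligands, Nodal summed to 436.7 and 428.4 CPM in the B6 libraries and to 540.5 and 455.1 CPM in the D2 libraries. The D2 values lay above the B6 values, mostly through D2 replicate 1, and the difference did not pass the test (log2 fold change 0.13, SE 0.12, adjusted p = 0.54 by edgeR). Bmp4, the other ligand, gave 60.9 and 72.8 CPM in B6 and 74.1 and 66.2 CPM in D2. These values interleave, and the log2 fold change was within 0.01 of 0 (SE 0.15, adjusted p = 0.999 by edgeR).

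Tdgf1, the Nodal co-receptor, gave 178 and 175 CPM in B6 and 232 and 171 CPM in D2 (log2 fold change 0.12, SE 0.13, adjusted p = 0.62 by edgeR). Only D2 replicate 1 stood above the rest, and without it the sign turned (log2 fold change -0.09). That library is also the only one named 10cyc, where the rest are named 8cyc; the labels do not define the term, and its part in this result was not tested. Leaving out D2 replicate 2, so that D2 replicate 1 stood alone for the strain, raised the number of members called from 2 to 4, with Tdgf1 higher and Id3 lower beside Id1 and Id2. The share called among all genes rose as well, from 13.3% to 23.7%, with genes called higher going from 3.53% to 11.3% and genes called lower from 9.78% to 12.4%.

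For the antagonists, Lefty1 gave 217 and 227 CPM in B6 and 249.6 CPM in each D2 library (log2 fold change 0.10, SE 0.12, adjusted p = 0.67 by edgeR). Lefty2 gave 597 and 601 CPM in B6 and 610 and 605 CPM in D2 (log2 fold change -0.05, SE 0.12, adjusted p = 0.85 by edgeR). In both genes the D2 libraries lay just above the B6 libraries in CPM. The fit also rescales the libraries with TMM, and without it the log2 fold change of Lefty2 was 0.02. Skil, which encodes the SMAD co-repressor SnoN, gave 80.1 and 76.4 CPM in B6 and 100.8 and 101.6 CPM in D2. The strains did not overlap, but the difference missed the threshold (log2 fold change 0.30, SE 0.14, adjusted p = 0.15 by edgeR).

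All 3 Id genes had lower values in D2 without overlap of the strains. Id2 gave 50.9 and 52.8 CPM in B6 and 23.1 and 26.5 CPM in D2 (log2 fold change -1.13, SE 0.18, adjusted p = 2.3e-05 by edgeR). Id1 gave 115.5 and 99.97 CPM in B6 and 85.3 and 83.9 CPM in D2 (log2 fold change -0.42, SE 0.14, adjusted p = 0.033 by edgeR). Id3 gave 154.7 and 153.2 CPM in B6 and 127.5 and 129.4 CPM in D2, a difference that missed the threshold (log2 fold change -0.33, SE 0.12, adjusted p = 0.073 by edgeR) and passed when only the start of the gene record was used (adjusted p = 0.043 by edgeR). In that setting Id1, Id2 and Id3 were called lower, against 10.4% of all genes called lower and 3.76% called higher (14.2% in all). Strains whose libraries do not overlap were common: 56.4% of all genes tested showed this in one direction or the other, and 7 of the 9 members did.

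Each member uses 1 anchor, so the same counts were also tested among all 51820 anchors, where 9.77% were called (7.1% lower, 2.68% higher) and TMM is taken over anchors instead of genes. Id2 fell there as well (log2 fold change -1.03, adjusted p = 4.7e-05 by edgeR). Id1 did not pass there (log2 fold change -0.31, adjusted p = 0.24 by edgeR). Without D2 replicate 2, Nodal, Tdgf1 and Skil passed as higher among anchors and Id2 as lower, against 7.36% of all anchors called higher and 7.47% called lower (14.8% in all). Among gene totals, the Id1 call was lost with DESeq2 (adjusted p = 0.21), with library totals in place of TMM (adjusted p = 0.082 by edgeR), without B6 replicate 1 (adjusted p = 0.44) and without B6 replicate 2 (adjusted p = 0.11). The Id2 call held in all 11 alternatives for gene totals, with log2 fold changes from -1.25 to -1.02.

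Per kb of anchor, the level of Nodal was 11.4 ± 0.15 CPM in B6 (SD, n = 2) and 13.1 ± 1.6 CPM in D2. Id1 followed with 11.2 ± 1.1 and 8.76 ± 0.10 CPM per kb, Lefty1 with 10.5 ± 0.35 and 11.7 ± 0.00036 CPM per kb, Id3 with 9.12 ± 0.065 and 7.61 ± 0.078 CPM per kb, and Lefty2 with 8.57 ± 0.037 and 8.69 ± 0.047 CPM per kb. In B6 Nodal and Id1 did not differ beyond their spread, nor did Id1 and Lefty1. The lowest levels per kb in B6 belonged to Skil (5.04 ± 0.17), Tdgf1 (4.61 ± 0.065), Id2 (4.29 ± 0.11) and Bmp4 (2.92 ± 0.37). In D2 Id2 was the lowest, at 2.05 ± 0.20 CPM per kb, below Bmp4 at 3.06 ± 0.24, Tdgf1 at 5.26 ± 1.1 and Skil at 6.51 ± 0.034 CPM per kb. There Nodal and Lefty1 did not differ beyond the spread of Nodal, nor did Id1 and Lefty2. By this measure, over all 4 libraries, Nodal stood at the 88th percentile of genes with a start-site anchor, Id2 at the 22nd and Bmp4 at the 20th.

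The reach of the contacts differed between members. The median count of a member's pair spanned 40.3 kb at Id1, 47.5 kb at Id2, 55.8 kb at Lefty1, 86.6 kb at Skil, 96.9 kb at Nodal, 100.9 kb at Lefty2, 147 kb at Id3, 189 kb at Bmp4 and 217 kb at Tdgf1, against 113 kb over all pairs of the table. The Bmp4 value was not stable: its library medians were 397 and 71.9 kb in B6 and 71.9 and 189 kb in D2. With only pairs of at least 5 counts summed, Bmp4 fell to 48.6 kb, Id3 to 112 kb and Tdgf1 to 169 kb, against 81.5 kb over all pairs, while the other 6 members kept their medians. Distances run between anchor midpoints, so a wide anchor such as that of Lefty2 can have no very near partner. Id2 and Id1 placed 65.3% and 55.6% of their counts within 50 kb, against 31.5% of all counts. Bmp4 placed 42.0% within 50 kb and 37.0% beyond 500 kb, and Tdgf1 placed 28.5% beyond 500 kb, against 17.4% of all counts. Skil placed 33.0% between 200 and 500 kb. The medians did not separate the strains except at Skil, with 164 and 123 kb in B6 and 86.6 kb in both D2 libraries, and there the difference was gone with pairs of at least 5 counts, at 86.6 kb in all 4 libraries. Over all pairs the strains were apart in the same direction, with medians of 120.4 and 119.5 kb in B6 and 104.9 and 110.2 kb in D2.

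**Figure D2:**
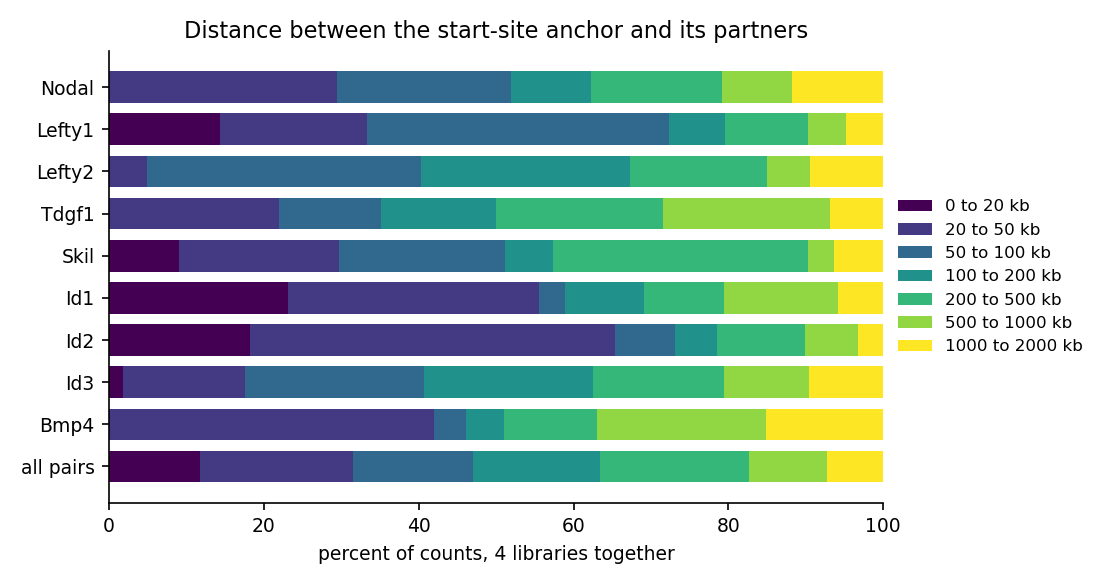
Share of each member's counts by distance between the start-site anchor and its partner, in percent of the counts of the 4 libraries together, with all pairs of the table in the bottom bar. Id1 and Id2 draw most of their counts from within 50 kb, whereas Tdgf1 has 28.5% of its counts beyond 500 kb and Bmp4 has 42.0% within 50 kb and 37.0% beyond 500 kb.

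Partners also differed in kind. Of the pairs with at least 20 counts over the 4 libraries, the partner covered a protein-coding start site in 5 of 6 at Id1, 12 of 20 at Id3, 14 of 27 at Tdgf1, 7 of 14 at Skil, 8 of 17 at Lefty1, 18 of 47 at Nodal and 17 of 45 at Lefty2. At Bmp4 this held for 1 of 6 partners and at Id2 for none of 6; all 6 Id2 partners and the other 5 of Bmp4 lay between genes. The authors' second value of a pair, taken here as a q-value, was under 0.01 in all 4 libraries for 156 of the 1053 member pairs (14.8%, against 3.31% of all pairs in the table). The anchors of members are wide, and 187 of the 1053 member pairs held at least 20 counts, against 108034 of all 1513030 pairs. The part of this in the higher share was not tested. The 156 pairs were 48 at Lefty2, 44 at Nodal, 25 at Tdgf1, 15 at Lefty1, 8 at Id3, 7 at Skil, 6 at Bmp4 and 4 at Id1. Id2 had none, and its strongest pair passed in 3 of the 4 libraries.

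In the comparison of single pairs, 187 of the 1053 member pairs reached 20 counts over the 4 libraries and were tested; 201 had a single count. The 2 pairs that changed both belong to Id2 and both fell in D2. That is 2 of 187 pairs, against 1.45% of all 108034 pairs tested (0.957% called lower and 0.492% called higher; edgeR quasi-likelihood test, adjusted p under 0.05). A further 17 member pairs had an unadjusted p under 0.05 by edgeR without passing. With the 2 called, this made 19 of 187, against 12681 of all 108034 pairs tested. The member pairs had a median log2 fold change of 0.02, against 0.02 over all tested pairs. The strains did not overlap in 68 of the 187 pairs, against 41.7% of all tested pairs.

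**Figure D3:**
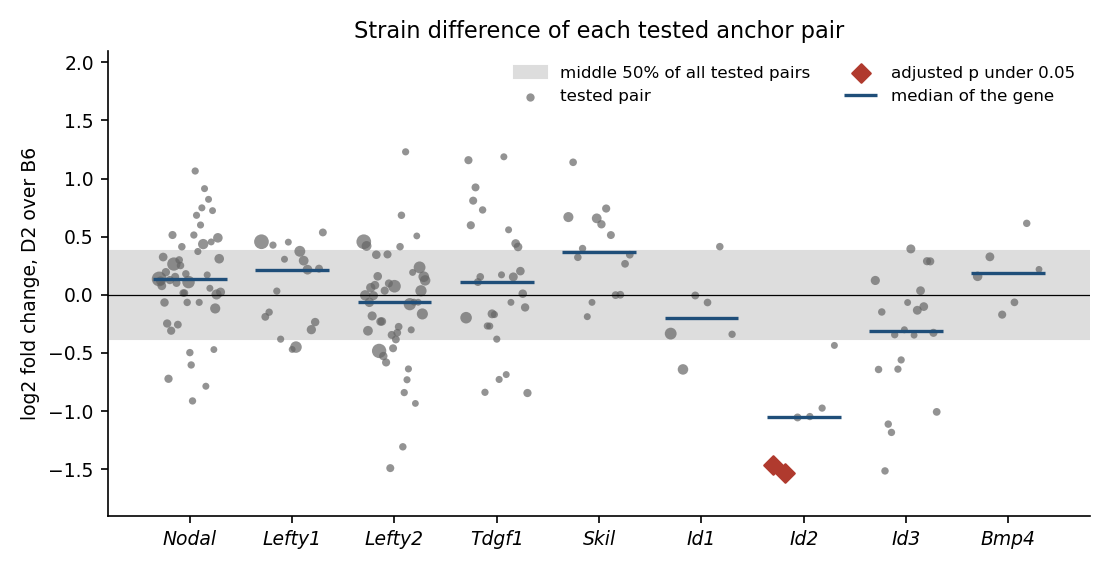
Log2 fold change, D2 over B6, of the tested pairs of each member; the area of a grey point grows with the counts of the pair, blue bars are medians and the grey band spans the quartiles of all tested pairs. All 6 pairs of Id2 lie below 0 and 2 of them, the red diamonds, passed the test, while 34 of the 47 pairs of Nodal lie above 0 and none passed.

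Id2 was the member with the clearest strain difference. Its strongest partner, chr12:25137338-25151817, lies 47.5 kb away on the upstream side, between genes, and covers the start of the noncoding transcript Gm36287. The pair had 41 and 36 counts in B6 and 11 and 18 in D2. All B6 values were above all D2 values (log2 fold change -1.47, SE 0.33, adjusted p = 0.0028 by edgeR). This call was lost with DESeq2 (adjusted p = 0.26), with a minimum of 10 counts (0.092) or none (0.11), and without B6 replicate 1 (0.14), B6 replicate 2 (0.055) or D2 replicate 1 (0.13), each with a log2 fold change between -1.54 and -1.20.

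The second pair of Id2, with chr12:25107254-25111896 at 12.5 kb, had 25 and 17 counts in B6 and 8 and 7 in D2 (log2 fold change -1.53, SE 0.44, adjusted p = 0.037 by edgeR). It kept its direction and lost its call in all 10 alternatives that gave it an adjusted p, with 0.052 to 0.75. Another pair, with chr12:25121539-25128206 at 27.8 kb, had 15 and 17 counts in B6 and 7 and 9 in D2 and did not pass (log2 fold change -1.06, adjusted p = 0.30 by edgeR). The remaining 3 tested pairs of Id2 had log2 fold changes of -1.05, -0.97 and -0.44.

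The lower counts were not limited to Id2. With its own pairs left out, the pairs within 1 Mb on either side summed to 423 and 428 CPM in B6 and 199 and 250 CPM in D2, a log2 ratio of -0.92. Ranked over 13973 genes by this ratio of their surroundings, Id2 was 134th from the lowest. The tests of single anchors and genes that follow keep any pairs with Id2 in the totals. Of 51 other anchors tested within 1 Mb, 27 were called, all lower in D2, and 48 had a log2 fold change below 0. Of the 6 neighbouring genes tested within 1 Mb, all had lower values in D2 and 3 passed. These were Rrm2, a subunit of ribonucleotide reductase (78.7 and 87.5 CPM in B6, 45.9 and 46.9 CPM in D2, log2 fold change -0.91, adjusted p = 3.2e-05 by edgeR), the acyltransferase gene Mboat2 (-0.93, adjusted p = 0.00019) and Kidins220, which encodes a kinase D substrate (-0.98, adjusted p = 0.00036; 0.082 when only the start of the gene record was used).

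In windows of 1 Mb along chromosome 12, again without Id2 pairs, both D2 libraries lay below both B6 libraries in an unbroken run of 15 windows, from 9 Mb below Id2 in coordinate to 5 Mb above it. The log2 ratio in this run went from -2.42 to -0.29. It was -0.92 to -0.55 in the 6 windows with more than 400 CPM in B6, which include the one centred on Id2 (792 and 795 CPM in B6, 365 and 472 CPM in D2). Window CPM sum the totals of the anchors in a window. A pair with both anchors inside therefore counts for each, unlike in the sums within 1 Mb above. Windows at 7 and 8 Mb had ratios of 0.28 and 0.14, and outside the run only the window at 10 Mb, of the 21 examined, again had both D2 libraries below both B6 libraries (log2 ratio -0.33, with 22.7 and 26.1 CPM in B6 and 19.9 and 19.0 CPM in D2). The log2 fold change of Id2 itself was -1.13 with TMM and -1.06 with library totals, the scale of these ratios. The value with library totals lay within the range of the run but below that of its 6 windows with more than 400 CPM. The part of the surrounding stretch in the Id2 result was not tested, nor was that of the genome build, which is the sequence of C57BL/6J.

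**Figure D4:**
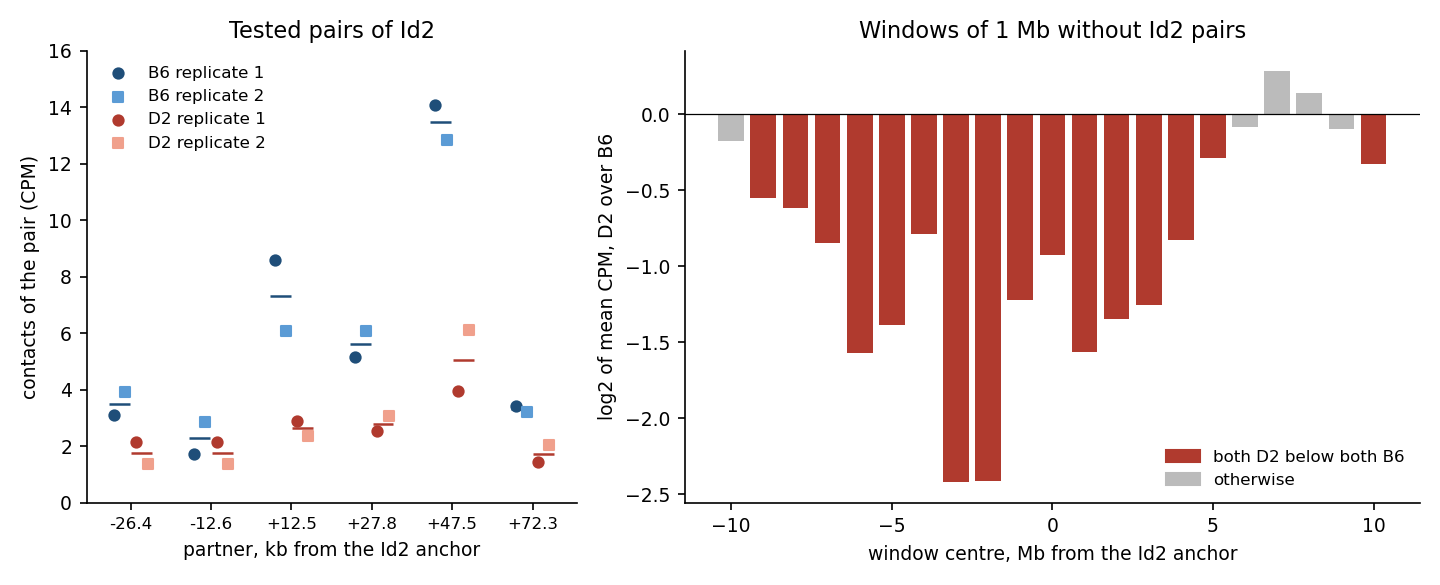
Left, CPM of the 6 tested pairs of Id2 in each library (circles, replicate 1; squares, replicate 2; bars, strain means of n = 2), ordered by distance of the partner in kb, positive values towards higher coordinates. Right, log2 ratio of the strain means in windows of 1 Mb within 10 Mb of Id2, with Id2 pairs left out; red windows, in which both D2 libraries were below both B6 libraries, run without a break from -9 to 5 Mb, and 1 more lies at 10 Mb.

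The surroundings of the other members were closer to 0. Their log2 ratios within 1 Mb were -0.09 at Nodal, -0.09 at Lefty1, -0.11 at Lefty2, 0.11 at Tdgf1, -0.14 at Id1, -0.15 at Id3, -0.18 at Bmp4 and 0.30 at Skil, with a median of 0.05 over the 13973 genes. The log2 fold change of Skil itself was 0.30 with TMM and 0.37 with library totals, the scale of these ratios. The ratio of its surroundings stood at the 91st percentile. Around Id3, 27 of 108 anchors were called, all lower, and around Id1 13 of 81 were called lower, against 7.1% of all anchors. Around Bmp4, 7 of 62 anchors were called, all lower. Of the neighbouring genes tested within 1 Mb, 5 of 12 at Bmp4, 7 of 30 at Id3 and 8 of 33 at Id1 were called lower. The share among all genes was 9.78%. These anchor and gene totals keep any pairs with the member, and neighbouring genes can share an anchor. H13 and Mcts2, both among the 8 at Id1, have starts in the same anchor, the strongest partner of Id1. At Skil 2 of 11 neighbouring genes were called higher, against 3.53% of all genes. Of 48 anchors tested there, 1 was called higher and 2 lower, against 2.68% and 7.1% of all anchors. In windows of 250 kb, with Skil pairs kept, the log2 ratio was 0.25, -0.51, 0.40 and 0.20 at 1000, 750, 500 and 250 kb below Skil in coordinate. It was 0.24 at Skil and -0.43, -1.54, -0.88 and -0.60 at 250, 500, 750 and 1000 kb above it. Around Nodal, 1 of 89 anchors was called.

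Id1 was dominated by 2 partners. Its strongest, chr2:152683641-152712539, covers the start sites of H13 and of Mcts2 at 40.3 kb and held 32.5% of all Id1 counts. This pair had 101 and 94 counts in B6 and 76 and 86 in D2 (log2 fold change -0.33, SE 0.23, adjusted p = 0.63 by edgeR). The next, chr2:152722689-152731341, lies 11.4 kb upstream between genes and held 18.8%. It had 72 and 52 counts in B6 and 41 and 42 in D2, without overlap and without passing (log2 fold change -0.64, SE 0.26, adjusted p = 0.26 by edgeR). The summed contacts of that partner anchor with all its partners did pass (adjusted p = 0.043 by edgeR).

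Id3 had many weak partners: the strongest held 6.51% of its counts and the 5 strongest 28.3%. The strongest, chr4:136103153-136109173 at 35.7 kb, between genes, had 23 and 26 counts in B6 and 22 and 34 in D2 (log2 fold change 0.12, adjusted p = 0.93 by edgeR). The next covers the start of Hnrnpr at 178 kb, with 22 and 18 counts in B6 and 38 and 17 in D2, where only D2 replicate 1 is high. Over all its tested pairs, 15 of 20 were below 0, with a median of -0.31. The pair lowest in D2, with a partner inside Asap3 at 81.2 kb, had 11 and 14 counts in B6 and 3 and 6 in D2 (log2 fold change -1.52, adjusted p = 0.18 by edgeR).

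Nodal had the most pairs of any member, 190, of which 47 were tested. The strongest joined it to the start of Eif4ebp2, a gene of a translation repressor, in chr10:61437066-61464302 at 39.5 kb, with 249 and 197 counts in B6 and 264 and 248 in D2. The strains overlap in this pair (log2 fold change 0.14, SE 0.22, adjusted p = 0.88 by edgeR). The second joined it to the start of Pald1 in chr10:61369109-61385254 at 34.0 kb on the other side, with 146 and 121 counts in B6 and 181 and 154 in D2 (log2 fold change 0.26, SE 0.22, adjusted p = 0.72 by edgeR). Another partner lies inside Pald1, and these 3 pairs, on both sides of Nodal, held 18.1%, 11.3% and 8.65% of its counts. The farthest tested pair reached the start of Herc4 at 1844 kb, with 5, 6, 7 and 6 counts in the 4 libraries in the order B6 then D2.

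Lefty1 and Lefty2 lie 41.9 kb apart on chromosome 1, and the strongest pair of each was the one that joins them. It had 181 and 202 counts in B6 and 272 and 279 in D2, and made up 34.7% of Lefty1 counts and 13.6% of Lefty2 counts. Both D2 values were above both B6 values, and the difference did not pass (log2 fold change 0.46, SE 0.22, adjusted p = 0.37 by edgeR; 0.0015 with no minimum of counts). When the pairs that join 2 members are left out, Lefty1 has a log2 fold change of -0.09 in place of 0.10. The second pair of each gene had the opposite direction. It leads to the same partner, chr1:180962092-180985476, inside Tmem63a and Ephx1, with 94 and 85 counts in B6 and 72 and 65 in D2 from Lefty1 (log2 fold change -0.45, adjusted p = 0.46 by edgeR) and 227 and 253 in B6 and 177 and 183 in D2 from Lefty2 (log2 fold change -0.48, adjusted p = 0.33 by edgeR). In both pairs the B6 libraries were above the D2 libraries, and the other contacts of that partner were also lower in D2, by a log2 ratio of -0.51 without the Lefty1 pair and -0.53 without the Lefty2 pair.

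**Figure D5:**
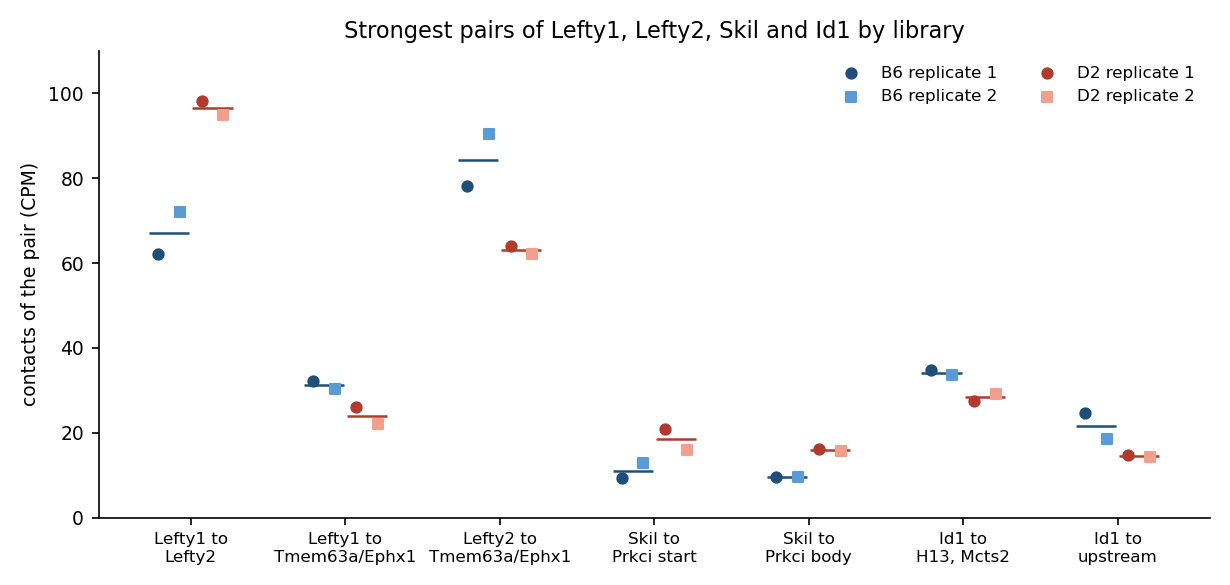
CPM of the strongest pairs of Lefty1, Lefty2, Skil and Id1 in each library (circles, replicate 1; squares, replicate 2; bars, strain means of n = 2). The pair between Lefty1 and Lefty2 and both Skil pairs have higher D2 values. The pairs of either Lefty gene with the interval inside Tmem63a and Ephx1 and both Id1 pairs have lower D2 values. None of the 7 pairs passed the edgeR or DESeq2 test after adjustment. By edgeR 5 had an unadjusted p under 0.05, against 12681 of all 108034 pairs tested.

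The Lefty genes shared 119 partners, which are 99.2% of the 120 partners of Lefty1 and 78.3% of the 152 partners of Lefty2. The remaining partner of Lefty1 is the Lefty2 anchor itself. No such share was worked out for other neighbouring anchors. The Lefty genes are near-identical copies in part. Of all stretches of 75 bases, the read length, 5.87% in the Lefty1 gene and 3.28% in the Lefty2 gene occur unchanged in the anchor of the other, and 0.940% and 0.288% over the whole anchors, so reads from these stretches could be placed in either. A distant pair of Lefty2, with chr1:180275813-180290828 at 590 kb, came closest to the threshold of all uncalled member pairs. It had 17 and 21 counts in B6 and 6 and 8 in D2 (log2 fold change -1.49, SE 0.46, adjusted p = 0.063 by edgeR).

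Both leading pairs of Skil led to Prkci, which encodes an atypical protein kinase C, upstream of Skil on chromosome 3. The pair with the Prkci start, chr3:30991428-31024171 at 86.6 kb, had 27 and 36 counts in B6 and 58 and 47 in D2 (log2 fold change 0.67, SE 0.28, adjusted p = 0.27 by edgeR). The pair with the Prkci gene body, chr3:31051485-31063758 at 36.8 kb, had 28 and 27 counts in B6 and 45 and 46 in D2 (log2 fold change 0.66, SE 0.29, adjusted p = 0.31 by edgeR). The strains do not overlap in either pair. Of the 14 tested pairs of Skil, 11 were above 0, and the 8 whose strains did not overlap were all higher in D2, where 23.8% of all tested pairs were higher and 17.9% lower without overlap.

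The strongest pair of Tdgf1 led into Lrrc2, whose start its own anchor covers, at chr9:110975986-110984815 and 30.5 kb. It had 91 and 77 counts in B6 and 88 and 65 in D2, which overlap (log2 fold change -0.20, SE 0.24, adjusted p = 0.83 by edgeR). Its second pair, with the starts of Als2cl and Tmie at 69.0 kb, had 16 and 31 counts in B6 and 19 and 25 in D2 (log2 fold change -0.16, adjusted p = 0.91 by edgeR). Tdgf1 also had a strong far pair, with the start of Cdc25a at 1057 kb, with 19 and 14 counts in B6 and 26 and 20 in D2. The tested pair of Tdgf1 with the smallest p, with the start of Ptpn23 at 545 kb, had 9 and 8 counts in B6 and 24 and 16 in D2 (log2 fold change 1.16, SE 0.43, adjusted p = 0.18 by edgeR).

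Bmp4 had 6 tested pairs. The strongest, with chr14:46407663-46415128 at 22.0 kb upstream between genes, had 22 and 37 counts in B6 and 41 and 28 in D2, which overlap (log2 fold change 0.16, SE 0.30, adjusted p = 0.91 by edgeR). The second, at 48.6 kb on the other side, had 17 and 21 counts in B6 and 24 and 26 in D2 (log2 fold change 0.33, adjusted p = 0.80 by edgeR). The 2 farthest tested pairs of Bmp4 were at 837 kb with 4 and 9 counts in B6 and 10 and 11 in D2, and at 974 kb, with the start of Lgals3, with 6 and 3 counts in B6 and 7 and 4 in D2.

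Other genes of the pathways were taken from fixed lists of ligands, receptors, SMAD proteins and partners, inhibitors, convertases and further targets. Of 57 listed genes on the autosomes, 49 had a start-site anchor and were tested. Of these 1 rose and 1 fell, against 3.53% of all genes called higher and 9.78% called lower, with a median log2 fold change of -0.01 against 0.01 over all genes. The one that rose was Gdf3, a ligand related to Nodal that also needs Tdgf1 (288 and 302 CPM in B6, 485 and 339 CPM in D2, log2 fold change 0.41, SE 0.13, adjusted p = 0.030 by edgeR). Its difference was largest in D2 replicate 1, and the call was lost without that library (log2 fold change 0.15, adjusted p = 0.51), without B6 replicate 1 (0.33) or B6 replicate 2 (0.19), and with DESeq2 (0.12). The one that fell was Tgif2, a co-repressor of SMAD proteins (367 and 350 CPM in B6, 239 and 210 CPM in D2, log2 fold change -0.75, SE 0.12, adjusted p = 1.4e-05 by edgeR), which passed in all 11 alternatives. None of the 12 receptors and co-receptors, 8 inhibitors, 2 convertases and 4 further targets tested passed with edgeR or, where it gave an adjusted p (not for 5 of them), with DESeq2. By edgeR 4 of these 26 genes had an unadjusted p under 0.05, against 3497 of all 13810 genes tested.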

How the data were processed

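Per the labels, 4 H3K27ac HiChIP libraries (2 per strain, 1 per line) were sequenced as 75 bp pairs. The authors deposited raw counts per anchor pair, with no normalization, and, per library, a second value of each pair taken here as the q-value of their loop caller; the caller and its settings are not given in the sources used here. The submitters' processing notes name HiC-Pro 2.11.4, DESeq2 and mm10. Counts of members were summed over pairs with an anchor over any GENCODE M21 start site. Pairs, gene totals and anchor totals with at least 20 counts over 4 libraries were tested with edgeR 4.0.16 (quasi-likelihood, TMM, strain as the term; R 4.3.3, limma 3.58.1), Benjamini-Hochberg adjusted over all features, threshold 0.05, after checks on simulated data; DESeq2 1.42.0 was an alternative. Pair fits used the summed tested counts as library size, the others the full totals. CPM uses full totals without TMM. Library totals and distances have no test: 2 against 2 permutations cannot go below p = 0.333. Fold changes are D2 over B6. The SE is the absolute log2 fold change divided by the square root of the quasi-likelihood F, so it follows from the test statistic.

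For each member the pair with the most counts is named, then further pairs by counts, and every called pair; the pairs of Lefty2 at 590 kb, of Tdgf1 with Ptpn23 and of Id3 with Asap3, the far pairs, and the neighbours of Id2 were chosen after their values were seen. Genes of the lists are named where they passed. The members and lists were chosen with earlier results of these data known. The libraries of a strain are separate lines, and p-values measure the spread between them. Same-numbered libraries did not deviate together (correlations of -0.00, 0.03 and 0.01 for pairs, genes and anchors), so the numbers do not pair them. The table holds the 19 autosomes, and Dusp9, on another chromosome, was not analysed here.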

Additional observations from a re-analysis of the deposited data

How the results depend on the processing

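Among single pairs, the 2 called (both Id2, both lower) became 0 with DESeq2, 0 with a minimum of 10 counts, and 1 with no minimum; that 1 is the pair between Lefty1 and Lefty2, higher in D2, with 0 called lower. They became 1 with library totals in place of TMM, 1 with the replicate number as a block (replicate block), 1 with distance-bin offsets and 1 with TMM factors over all pairs, in each case the Id2 pair at 47.5 kb, and 0 to 1 when 1 library was left out. The last 2 settings, and gene totals without pairs joining 2 members, were chosen after seeing the data. Among gene totals, the 2 called became 1 (Id2, lower) with DESeq2 and 1 with library totals, and 3 (Id1, Id2 and Id3, all lower; 14.2% of all genes) when only the start of the gene record was used. Leaving out 1 library gave 1 to 4 gene totals called, 0 to 1 higher and 1 to 3 lower, and 1 to 4 anchor totals, 0 to 3 higher; the 4 in each case appeared without D2 replicate 2 (for anchors Nodal, Tdgf1 and Skil higher, Id2 lower), where 23.7% of all genes and 14.8% of all anchors were called. With 1 library left to a strain, that library is assumed to vary like the others. The block changed no call of a gene or anchor total, and the numbers do not pair the libraries. Uncalled log2 fold changes turned sign as follows, and the cause was not tested. Lefty1 was -0.086 without pairs joining 2 members and Lefty2 0.021 with library totals. Bmp4, near 0, was 0.0083 with DESeq2, 0.069 with library totals, 0.0018 with the replicate block and 0.066 with pairs of at least 5 counts. Leaving out 1 library gave gene totals of -0.094 to 0.31 for Tdgf1 and -0.14 to 0.14 for Bmp4, and anchor totals of -0.0032 to 0.12 for Lefty2, -0.062 to 0.49 for Tdgf1 and -0.030 to 0.24 for Bmp4. It gave -0.0059 to 0.28 for the first pair of Nodal, -0.48 to 0.036 and -0.59 to 0.41 for the first and second of Tdgf1, -0.19 to 0.36 and -0.34 to 0.89 for those of Id3, and -0.19 to 0.60 for the first of Bmp4. The median distance pooled over members was 100.9 kb in both alternatives, but with pairs of at least 5 counts that of Bmp4 went from 189 to 48.6 kb, of Id3 from 147 to 112 kb and of Tdgf1 from 217 to 169 kb, and 129 of the 156 pairs stayed under a q-value of 0.001 in all 4 libraries. Depth limits the pairs: those of Id2 held at most 106 counts over 4 libraries.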
